A study of Homo sapiens with 12 samples.

Results

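The miR-148 and miR-152 family was followed in A549 cells while TGF-β drove them from an epithelial to a mesenchymal state (epithelial-to-mesenchymal transition, EMT). The 5 strands described were the rows of the count table named hsa-miR-148a-3p, hsa-miR-148b-3p, hsa-miR-152-3p, hsa-miR-148a-5p, and hsa-miR-148b-5p, out of 2588 mature miRNAs. Each had 1 entry in the table, and all 5 passed the filter on low counts. The remaining arm, hsa-miR-152-5p, was added because it is the partner of miR-152-3p. A549 is a human lung adenocarcinoma line that grows as an epithelium, and in it the cytokine TGF-β starts EMT. Small RNA was sequenced before treatment (0 h) and after 24 h and 96 h of TGF-β, with 2 libraries per time point and 2 sequencing runs per library. All groups are the same unmodified line, with no knockdown or transgene, and differ by time under TGF-β. No untreated culture of the later times was analysed here, so TGF-β and time in culture cannot be told apart. Nothing in the labels says that the replicates were separate cultures, so the tests measure the spread between these libraries, which may be technical.

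A miRNA is cut from a hairpin precursor as a duplex of a 5p and a 3p arm, 1 of which, the guide, usually stays in the Argonaute complex while its partner, the passenger, is usually degraded. The guide finds target mRNAs mainly through its seed, the bases near its 5′ end, and lowers their stability and translation. In the miR-148 and miR-152 family the 3p arms are the usual guides, and DNMT1, the maintenance DNA methyltransferase, is among their best known targets. Members of the family are often described as low in carcinomas, and promoter methylation of their genes has been described there.

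The guide strands are shown first because their shared seed defines the family. The mature sequences are from RefSeq, written 5′ to 3′ with the seed (bases 2 to 8) in capitals:
hsa-miR-148a-3p: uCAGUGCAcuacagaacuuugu
hsa-miR-148b-3p: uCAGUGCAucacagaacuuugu
hsa-miR-152-3p: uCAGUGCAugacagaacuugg

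The seed was identical in all 3 guides, and no other of the 2370 human mature miRNAs in the reference table carried it. Positions are counted from 1 at the 5′ end, and the base of the first-named strand is given first. MiR-148a-3p differed from miR-148b-3p at C9U and U10C, which left 20 of 22 bases identical. It differed from miR-152-3p at C9U, U10G, and U20G over 21 bases. MiR-148b-3p and miR-152-3p differed at C10G and U20G. The differences lay outside the seed, in the middle and near the 3′ end of the strands. How the counting treated a read with a mismatch is not given in the sources used here, so exchange of reads between miR-148a-3p and miR-148b-3p, which 2 bases separate, was not tested.

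The 5p arms are shown because the balance between the arms is among the measures below, again with bases 2 to 8 in capitals:
hsa-miR-148b-5p: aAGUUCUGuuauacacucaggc
hsa-miR-152-5p: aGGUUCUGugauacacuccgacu

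The seeds of these 5p arms were not the same. The reference table holds no mature sequence for miR-148a-5p, so that arm is neither shown here nor marked in its hairpin. From miR-148b-5p to miR-152-5p the changes were A2G, U10G, A19C, and G21A, and the first lies inside the seed.

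The hairpins show how the arms are placed, with the arms that RefSeq annotates in capitals:
MIR148A: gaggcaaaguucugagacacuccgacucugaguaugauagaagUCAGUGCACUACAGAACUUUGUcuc
MIR148B: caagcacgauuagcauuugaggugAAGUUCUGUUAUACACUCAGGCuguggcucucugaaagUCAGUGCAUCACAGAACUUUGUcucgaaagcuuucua
MIR152: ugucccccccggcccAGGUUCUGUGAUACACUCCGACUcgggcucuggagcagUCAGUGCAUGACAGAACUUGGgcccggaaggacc

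All 3 RefSeq hairpins were identical to the GRCh37 genome at their annotated positions. MIR148A lies at chr7:25989539-25989606 on the minus strand, inside an intron of a long noncoding RNA and 202212 bases from the nearest protein-coding gene, NFE2L3. MIR148B lies at chr12:54731000-54731098 on the plus strand in an intron of COPZ1, and MIR152 at chr17:46114527-46114613 on the minus strand in an intron of COPZ2. Both host genes encode zeta subunits of the COPI vesicle coat and are transcribed in the direction of the miRNA they hold. No hairpin overlapped an exon of another gene.

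The 6 libraries held 2335185 to 5971197 counts on mature miRNAs, with the deepest 2 at 96 h. Levels are given as CPM (counts scaled to a common library size) after normalization by the trimmed mean of M values (TMM), whose factors ran from 0.738 at 96 h to 1.364 at 0 h replicate 2. Among marker miRNAs of other cells, the fibroblast marker miR-214-3p and the blood cell markers miR-223-3p and miR-150-5p were at 0 in all libraries, and no marker of blood cells passed the filter. The 5 blood cell markers summed to 1.13 to 5.49 CPM. The 4 fibroblast markers summed to 0.895 to 2.56 CPM at 0 h, 1.49 to 5.51 at 24 h, and 8.68 to 9.76 at 96 h. Of these only miR-145-5p passed the filter, at 0 to 0.366 CPM at 0 h and 6.58 to 6.78 at 96 h. It was called higher at 96 h than at 0 h (log2-fold change 5.05, edgeR adjusted p = 0.00108). Its reads numbered 29 in 96 h replicate 1 and 25 in replicate 2, against 1 read in 0 h replicate 1 and 0 in replicate 2. Only the 96 h libraries reached the filter's minimum count of 10. The values that admitted miR-145-5p to the test thus also favored this call. MiR-126-3p, listed for endothelium, was at 382 to 483 CPM in every library. Of the 7 epithelial markers 6 passed the filter. The 7 summed to 126 CPM in both libraries at 0 h, 164 to 191 at 24 h, and 246 to 254 at 96 h. At 96 h miR-200b-3p was the 1 epithelial marker called, and higher than at 0 h, against 25.9% of the 491 miRNAs tested. It had 45.1 and 43.0 CPM at 0 h and 147.5 and 119.9 at 96 h. MiR-200a-3p had 37.0 and 44.8 CPM at 0 h and 64.4 and 79.2 at 96 h (log2-fold change 0.81, edgeR adjusted p = 0.00947). The log2-fold changes of miR-203a-3p (0.745) and miR-429 (0.204) were above 0. Those of miR-200c-3p (-0.0347) and miR-141-3p (-1.14) were below 0, and miR-205-5p was at 0 CPM at 96 h. The sum therefore does not describe each marker. The liver miRNA miR-122-5p had 5.49 and 2.69 CPM at 0 h and 0.908 and 0.271 at 96 h. It was called lower at 96 h than at 0 h (log2-fold change -2.6, edgeR adjusted p = 0.0290). This call rests on 15 reads in 0 h replicate 1, 9 in replicate 2, 4 in 96 h replicate 1, and 1 in replicate 2. Only 0 h replicate 1 reached a count of 10. The 0 h values that admitted miR-122-5p to the test thus also favored a lower call. The part of other cells in the results was not tested.

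The 3 guides were abundant, and miR-148a-3p was the 1 guide with an adjusted p under 0.05 between 96 h and 0 h. It had 3339 and 1664 CPM in the 2 libraries before treatment, 3317 and 3467 after 24 h, and 4347 and 4334 after 96 h. Both 96 h libraries exceeded the other 4. Scaled to total counts they did not, at 3209 and 3430 CPM beside 3904 in 0 h replicate 1. In bulk RNA a change in the number of cells that make a miRNA and a change per cell cannot be told apart. The 0 h replicate 2 library stood apart, at a level 2.01-fold below 0 h replicate 1, whereas replicates differed by 1.05-fold at 24 h and 1.003-fold at 96 h. The mean level was 2502 ± 1185 CPM (SD, n = 2) before treatment, 3392 ± 106 after 24 h, and 4341 ± 9.34 after 96 h.

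The means of miR-148b-3p had the same order with smaller steps. Its levels were 2642 and 1936 CPM before treatment, 2466 and 2721 after 24 h, and 2694 and 2889 after 96 h. The library at 0 h replicate 2 was again the lowest, and the time points overlapped, since 24 h replicate 2 exceeded 96 h replicate 1 and 0 h replicate 1 exceeded 24 h replicate 1. MiR-152-3p was the least abundant guide and the most even, with 349.8 and 346.1 CPM before treatment, 346.9 and 356.1 after 24 h, and 390.3 and 373.5 after 96 h. Both 96 h libraries exceeded the other 4. Scaled to total counts both were instead below the other 4, at 288 and 296 CPM.

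The 5p arms were far rarer. MiR-148b-5p, the most abundant of them, had 31.5 and 41.2 CPM before treatment, 33.1 and 32.1 after 24 h, and 24.7 and 23.6 after 96 h. MiR-148a-5p had 6.23 and 6.86 CPM before treatment, 6.33 and 6.73 after 24 h, and 3.18 and 4.07 after 96 h. These levels rest on 14 to 23 counts per library. MiR-152-5p had 3.30 and 5.07 CPM before treatment, 3.35 and 3.36 after 24 h, and 2.04 and 1.08 after 96 h, on 4 to 17 counts. In all 3 of the 5p arms both libraries at 96 h were below the other 4. Of the 5 members, 2 were thus lowest at 96 h without overlap, against 23.4% of the 491 miRNAs tested, and 2 highest, against 25.1%. These counts are for TMM. Scaled to total counts, the 2 highest, miR-148a-3p and miR-152-3p, no longer were.

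**Figure D1:**
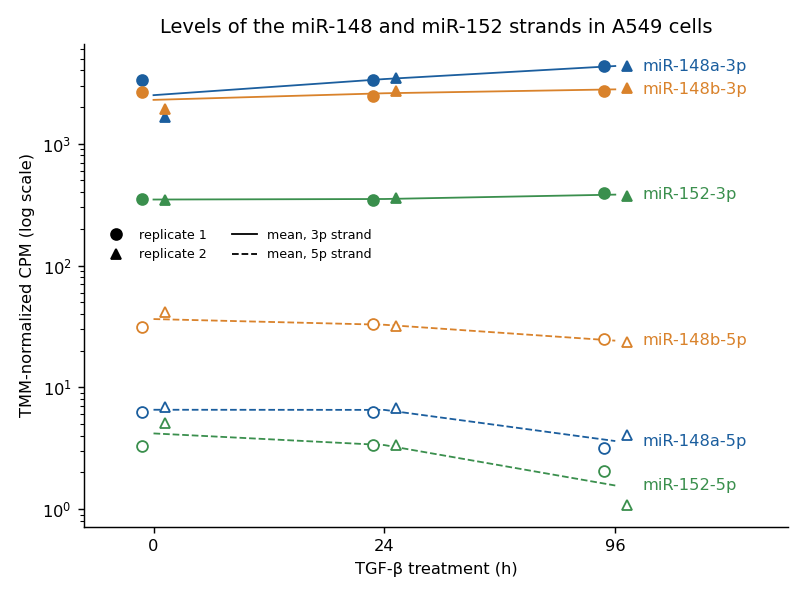
TMM-normalized CPM of the 6 strands (log axis) against hours of TGF-β treatment, with 1 point per library, lines through the means of the 2 libraries, filled symbols for 3p arms and open symbols for 5p arms. The 3p lines run upward, from 2502 to 4341 CPM in miR-148a-3p, and the 5p lines downward, from 36.3 to 24.2 CPM in miR-148b-5p, while the low point of miR-148a-3p at 0 h is replicate 2. Scaled to total counts, miR-148b-3p and miR-152-3p are lower at 96 h than at 0 h.

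By rank among all mature miRNAs, miR-148a-3p took places 23 to 44 over the 6 libraries, miR-148b-3p 31 to 39, and miR-152-3p 89 to 94. The 5p arms lay at 202 to 253 for miR-148b-5p, 354 to 422 for miR-148a-5p, and 393 to 568 for miR-152-5p. A small RNA read spans the whole molecule, so these levels need no correction for length, although adapter ligation favors some sequences over others. In 5 of 6 libraries miR-148a-3p was the highest member, and in 0 h replicate 2 it was miR-148b-3p. At 0 h their means differed by less than the spread of miR-148a-3p between replicates, while at 24 h and 96 h both libraries had more miR-148a-3p. All other steps in the order, from miR-148b-3p down to miR-152-5p, were larger than the spread between libraries, with no overlap at any time point.

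The comparison of 96 h with 0 h asked which miRNAs change over the course of EMT. A miRNA was called where its log2-fold change exceeded 1 in either direction with an adjusted p below 0.05. No member passed both thresholds in edgeR's quasi-likelihood test, against 25.9% of the 491 miRNAs tested. At an unadjusted p under 0.05 there were 2 of 5 members, against 274 of the 491 miRNAs tested. The Wald test of DESeq2 called 0 members, against 112 of the 491. Limma was run on the deposited normalized values, which are scaled to run totals and hold 1 library at 96 h. In it the log2-fold changes were -1.41 for miR-148a-5p and -1.16 for miR-148b-5p, beside a median of -0.77 over all miRNAs tested. At an adjusted p under 0.05 without a minimum fold change, 2 of 5 members passed, against 44.0% of all miRNAs tested. One was miR-148a-3p, which rose by a log2-fold change of 0.80 (SE 0.257, 95% interval 0.22 to 1.37, edgeR adjusted p = 0.0305). The other was miR-148b-5p, which fell by 0.59 on the log2 scale (SE 0.215, adjusted p = 0.0477).

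The adjusted p of miR-148a-3p was under 0.05 in 10 of 17 alternatives. Without 0 h replicate 2 the log2-fold change was 0.39 (edgeR adjusted p = 0.0450), and without 0 h replicate 1 it was 1.43 (adjusted p = 3.79e-07). It lost significance without 24 h replicate 1 (adjusted p = 0.0755), without 96 h replicate 1 (adjusted p = 0.101), and without 96 h replicate 2 (adjusted p = 0.0963), at log2-fold changes of 0.83 to 0.85. Scaled to total counts it was at 0.10 (adjusted p = 0.692), with totals that left out miR-21-5p at 0.46 (adjusted p = 0.127), and with a filter at a mean of 10 CPM at 0.66 (adjusted p = 0.0716). In limma it was at 0.13 (adjusted p = 0.728). With 1 library left at a time point, that library is assumed to vary like the others. For miR-148b-5p the value was -0.37 without 0 h replicate 2 (edgeR adjusted p = 0.286) and -0.72 without 0 h replicate 1 (adjusted p = 0.0198). Its adjusted p was not under 0.05 in 11 of 17 alternatives.

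The remaining members did not pass at 96 h. MiR-148b-3p had a log2-fold change of 0.29 (95% interval -0.082 to 0.66, edgeR adjusted p = 0.182), which was 0.57 without 0 h replicate 1 (adjusted p = 0.00476) and 0.088 without 0 h replicate 2 (adjusted p = 0.674). For miR-152-3p the value was 0.13 (95% interval -0.17 to 0.43, adjusted p = 0.439), an interval that leaves out a 2-fold change in either direction. MiR-148a-5p was at -0.86 (95% interval -1.76 to 0.043, adjusted p = 0.105), and the partner arm miR-152-5p at -1.39 (95% interval -2.66 to -0.12, adjusted p = 0.0683). Both of these intervals include a 2-fold decrease.

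At 24 h no member passed in edgeR, with or without the minimum fold change. None had an unadjusted p under 0.05, against 139 of the 491 miRNAs tested. DESeq2 and limma called 0 members as well, against 15 and 16 of the 491. Over all miRNAs tested 3.46% were called by both thresholds and 7.13% by the adjusted p alone. The log2-fold changes were 0.44 for miR-148a-3p (adjusted p = 0.284), 0.18 for miR-148b-3p, 0.014 for miR-152-3p, -0.0051 for miR-148a-5p, and -0.16 for miR-148b-5p. The first of these rested on 0 h replicate 2, since without it the log2-fold change was 0.034 and without 0 h replicate 1 it was 1.07 (edgeR adjusted p = 7.37e-05). MiR-148b-3p was likewise at -0.015 without 0 h replicate 2 and at 0.46 without 0 h replicate 1 (adjusted p = 0.0436).

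From 24 h to 96 h no member passed either. In edgeR 0 members had an unadjusted p under 0.05, and DESeq2 called 0 members, against 27 of the 491 miRNAs tested. The edgeR background was 5.91% by both thresholds, 12.6% by the adjusted p alone, and higher still by the unadjusted p. In this comparison, which does not use the 0 h libraries for its difference, the 5p arms had the larger values, -0.85 for miR-148a-5p, -0.43 for miR-148b-5p, and -1.06 for miR-152-5p. The guides were at 0.36 for miR-148a-3p, 0.11 for miR-148b-3p, and 0.12 for miR-152-3p. Adjusted p ranged from 0.187 for miR-148a-5p to 0.694 for miR-148b-3p (edgeR). When either of the 0 h libraries was left out, the spread came from the rest, and miR-148a-3p then passed at log2-fold changes of 0.36 (replicate 1 left out, adjusted p = 0.0307) and 0.35 (replicate 2 left out, adjusted p = 0.0340).

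**Figure D2:**
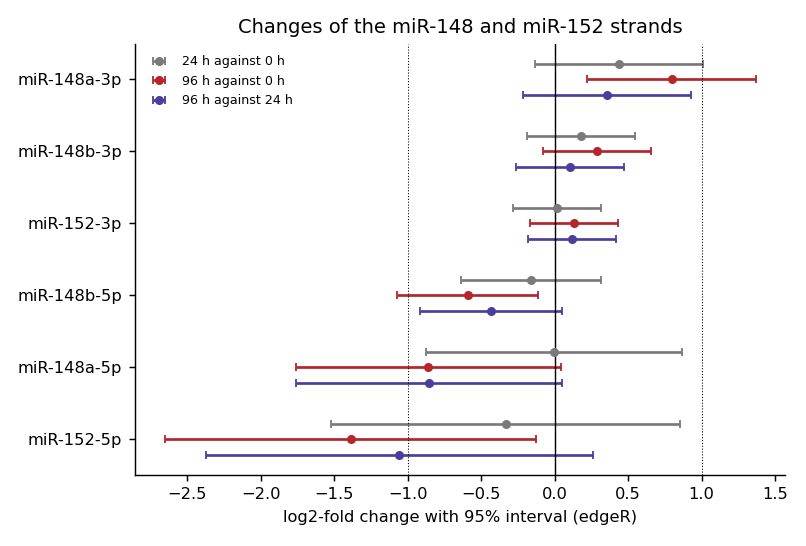
The log2-fold change of each strand in the 3 comparisons of time points, from edgeR's fit on all 6 libraries, with points for the estimate, bars for the 95% interval, and dotted lines at a log2-fold change of 1 in either direction. At 96 h against 0 h the interval of miR-148a-3p lies above 0 (0.22 to 1.37) and that of miR-148b-5p below 0 (-1.07 to -0.11), while the intervals of miR-148b-3p and miR-152-3p include 0.

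The direction of the guides depended on how libraries were scaled. The median log2-fold change of all miRNAs tested at 96 h against 0 h was -0.10 with TMM and -0.83 with total counts, and with total counts miR-148a-3p was at 0.10, miR-148b-3p at -0.42 (edgeR adjusted p = 0.0274), and miR-152-3p at -0.59 (adjusted p = 0.00885). Relative to the median of all miRNAs under the same scaling, miR-148a-3p stood 0.89 higher with TMM and 0.47 to 1.42 higher over the 17 alternatives. MiR-148b-3p stood 0.39 higher with TMM, over a range of 0.18 to 0.57, and miR-152-3p 0.23 higher, over a range of 0.082 to 0.31. On the same scale miR-148a-5p stood at -0.76, over a range of -0.89 to -0.50, and miR-148b-5p at -0.49, over a range of -0.73 to -0.29. A change of scaling shifts a member and the median alike, so these alternatives bear little on that position.

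A site that pairs with the seed alone meets the 3 guides as a sum, so their summed level was compared as well. It was 6331 and 3946 CPM before treatment, 6129 and 6545 after 24 h, and 7432 and 7597 after 96 h. The highest 2 values were those of 96 h and the lowest that of 0 h replicate 2. The difference between 96 h and 0 h was 0.59 on the log2 scale (exact permutation test over the 15 ways to divide 6 libraries into 3 time points of 2, p = 0.133, where the smallest possible p is 0.0667). With 0 h replicate 2 left out the difference was 0.25, and with 0 h replicate 1 left out it was 0.93. With total counts the same difference was -0.14. As shares of all reads the family took 0.740% and 0.538% before treatment, 0.647% and 0.666% after 24 h, and 0.549% and 0.601% after 96 h. The 95% Wilson interval, which covers counting error only, was widest in 0 h replicate 1, from 0.729% to 0.751%.

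The composition of this sum does not depend on the scaling between libraries. MiR-148a-3p made up 52.7% and 42.2% of the family reads before treatment, 54.1% and 53.0% after 24 h, and 58.5% and 57.1% after 96 h. Both 96 h libraries exceeded all others and both 24 h libraries exceeded both at 0 h, so that the exact permutation test gave p = 0.0667, the smallest this design allows, and 0.233 after Benjamini-Hochberg adjustment over the 7 tests of this kind. The nearest values, 53.0% in 24 h replicate 2 and 52.7% in 0 h replicate 1, had 95% Wilson intervals that overlapped (52.3% to 53.6% and 52.0% to 53.5%). The share of miR-148b-3p was 41.7% and 49.1% before treatment, 40.2% and 41.6% after 24 h, and 36.3% and 38.0% after 96 h. Its order was the reverse, with the same exact permutation p. The 3 shares make up 1 whole, of which miR-152-3p is a small part, so this largely repeats the result for miR-148a-3p. The share of miR-152-3p was 5.53% and 8.77% before treatment, 5.66% and 5.44% after 24 h, and 5.25% and 4.92% after 96 h (exact permutation p = 0.267). Without 0 h replicate 2 the share of miR-148a-3p still differed by 5.03 percentage points between 96 h and 0 h, compared with 10.3 with both libraries. The number of miR-148a-3p reads per miR-148b-3p read was 1.26 and 0.860 before treatment, 1.35 and 1.27 after 24 h, and 1.61 and 1.50 after 96 h.

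**Figure D3:**
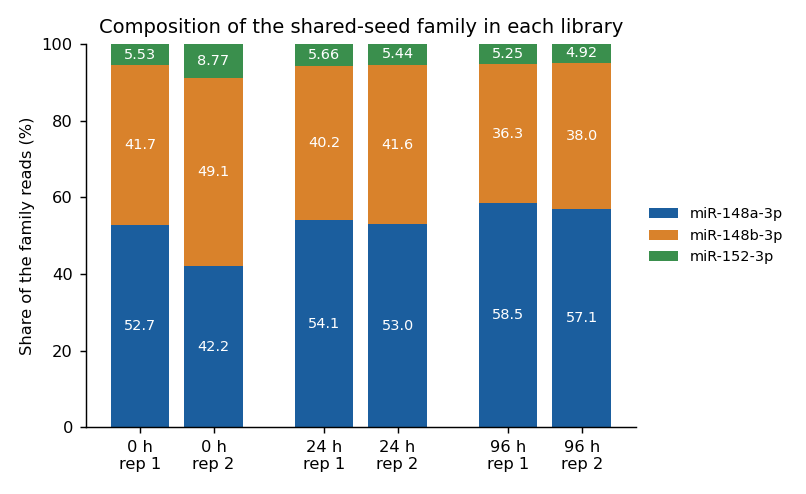
Share of miR-148a-3p, miR-148b-3p, and miR-152-3p in the summed reads of the 3 guides (stacked to 100%), with 1 bar per library. The lowest segment, miR-148a-3p, is 58.5% and 57.1% in the libraries at 96 h and 42.2% in 0 h replicate 2, where miR-148b-3p is the larger segment at 49.1%.

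The 5p arm took its smallest share of the reads at 96 h in all 3 precursors. Of the MIR148A reads, 0.186% and 0.411% came from the 5p arm before treatment, 0.190% and 0.194% after 24 h, and 0.0730% and 0.0938% after 96 h. Of the MIR148B reads the 5p arm took 1.18% and 2.08% before treatment, 1.33% and 1.17% after 24 h, and 0.910% and 0.810% after 96 h. For MIR152 the values were 0.934% and 1.44%, 0.956% and 0.936%, and 0.521% and 0.290%. In each precursor both libraries at 96 h were the lowest, a pattern found in 25.0% of the 108 precursor names measured the same way. The highest value was that of 0 h replicate 2, while 0 h replicate 1 lay beside the 24 h libraries.

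On the log2 scale the ratio of 5p to 3p reads differed between 96 h and 0 h by -1.74 in MIR148A (exact permutation p = 0.200), by -0.88 in MIR148B (p = 0.133), and by -1.59 in MIR152 (p = 0.200). After adjustment over the 7 tests each p was 0.233. The differences were -1.17, -0.46, and -1.27 without 0 h replicate 2, and -2.32, -1.30, and -1.91 without 0 h replicate 1. Between 24 h and 0 h they were -0.53, -0.34, and -0.30 with all libraries and 0.045, 0.078, and 0.020 without 0 h replicate 2. Counting error alone was large for the rare arms. For example, the 95% Wilson interval of the 5p share of MIR148A ran from 0.116% to 0.298% in 0 h replicate 1 and from 0.0435% to 0.123% in 96 h replicate 1.

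**Figure D4:**
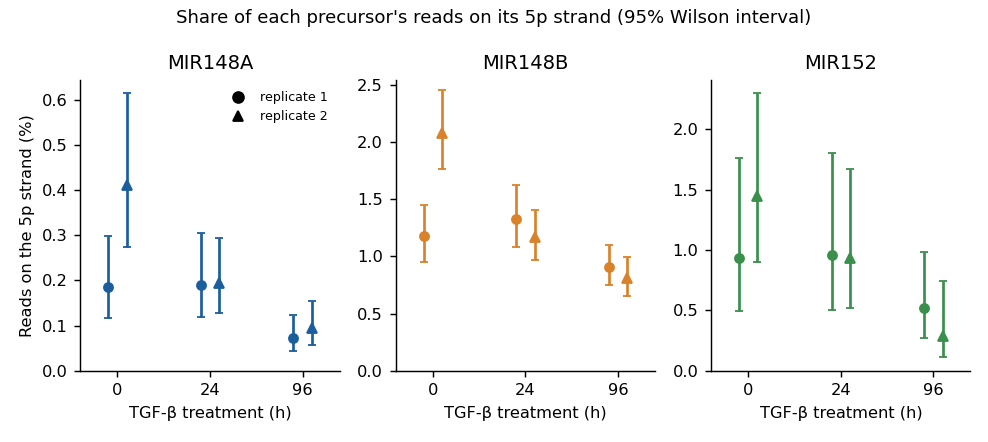
Percentage of the reads of MIR148A, MIR148B, and MIR152 that came from the 5p arm, with 1 point per library and bars for the 95% Wilson interval, which covers counting error only. In each panel the 2 points at 96 h are the lowest, at 0.0730% and 0.0938% in MIR148A, and the triangle at 0 h, replicate 2, is the highest.

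The same measure was taken across the table, a description added after the values of the family had been seen. The 108 precursor names were those with both arms past the filter, the 3 of this family included. The change of the less abundant arm minus that of the other arm, from edgeR's fit at 96 h against 0 h, had a median of -0.38, and 67.6% of the pairs were below 0. MIR148A, at -1.65, was the 4th lowest of the 108, MIR152, at -1.52, the 5th lowest, and MIR148B, at -0.88, the 18th lowest. The first of these places rest on rare arms, with 14 to 23 counts per library for miR-148a-5p and 4 to 17 for miR-152-5p. The SEs of their log2-fold changes were 0.41 and 0.57, and how stable the places are was not tested. In 31.5% of the pairs 0 h replicate 2 had the highest share of the less abundant arm, as in the 3 precursors of this family.

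**Figure D5:**
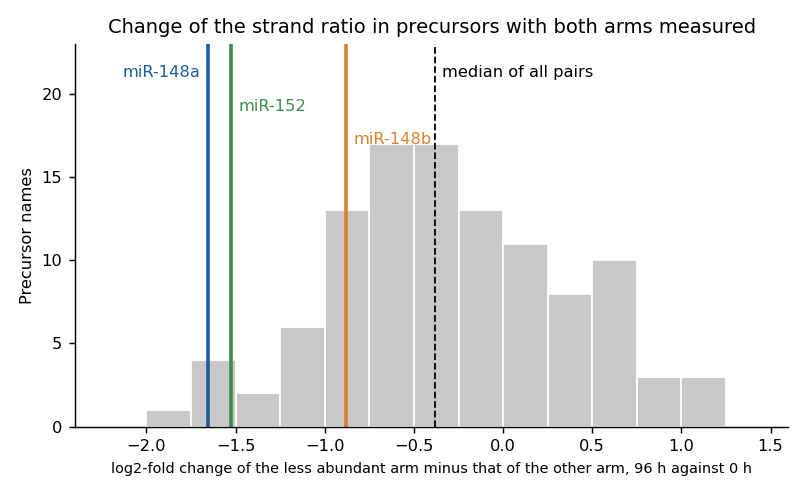
Histogram of the 108 precursor names with both arms measured, by the log2-fold change at 96 h against 0 h of the less abundant arm minus that of the other arm. The colored lines mark the family, with miR-148a at -1.65 and miR-152 at -1.52 in the left tail and miR-148b at -0.88 nearer to the median of all pairs at -0.38 (dashed).

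The gap between the 0 h libraries was also looked for between sequencing runs. In the sample titles 1 run of every library carries the same date. The date of the other run is shared by 0 h replicate 2 and both 24 h libraries. A later date is shared by 0 h replicate 1 and both 96 h libraries. The part of this date in the results was not tested. In 5 libraries the deposited normalized values allowed the counts of both runs to be separated, with every entry coming out as whole reads within 0.011, and 96 h replicate 2 was not analysed in this way. In 0 h replicate 1 miR-148a-3p had 3555 CPM in the deeper run and 3638 in the other, relative to the total of each run. In 0 h replicate 2 it had 2053 and 2072 CPM. The runs of each 0 h library were thus close, beside a larger gap between the libraries. Which separated run carries which date could not be worked out, and the cause of the gap was not tested. The other guides differed by at most 0.14 on the log2 scale between the runs of a library. The 5p arms, on few reads per run, differed more in some libraries. In 0 h replicate 1 miR-148a-5p had 8.12 CPM in the deeper run and 2.86 in the other, and miR-148b-5p 36.8 and 25.7. In 24 h replicate 1 miR-148a-5p had 5.88 and 6.51 CPM.

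Over the 6 libraries, miR-148a-3p and miR-148b-3p had similar profiles (Pearson r = 0.962 of log2 CPM, a description over 6 points that share the normalization and include 0 h replicate 2). The value was 0.681 between miR-148a-3p and miR-152-3p and -0.666 between miR-148a-3p and its own 5p arm. Of the 318 other miRNAs compared, those with a mean of at least 10 CPM, the most like miR-148a-3p were miR-335-3p (r = 0.973), miR-99a-5p (r = 0.967), and miR-26a-5p (r = 0.946). MiR-99a-5p had 707 and 374 CPM before treatment, 731 and 836 after 24 h, and 1192 and 905 after 96 h, with the same low 0 h replicate 2. The most like miR-148b-3p were miR-16-2-3p (r = 0.917), miR-424-3p (r = 0.905), and miR-335-3p (r = 0.903). For miR-152-3p they were miR-30b-5p (r = 0.981), miR-455-5p (r = 0.969), and miR-381-3p (r = 0.960).

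The first list held 8 other miRNAs known to act on DNA methyltransferase mRNAs. All 8 passed the filter, and at 96 h against 0 h 1 of 8 was called by both thresholds, against 25.9% of all miRNAs tested. It was miR-143-3p, which rose by a log2-fold change of 6.32 (SE 0.220, edgeR adjusted p = 2.75e-08) from 4.48 and 6.23 CPM to 409 and 443 CPM. By the adjusted p alone 4 of 8 passed, against 44.0% of all miRNAs, with miR-143-3p and miR-101-3p (0.62) higher and miR-29b-3p (-0.99) and miR-29c-3p (-0.98) lower. The other 4, miR-29a-3p, miR-126-3p, miR-185-5p, and miR-342-3p, did not pass. MiR-29b-3p had 4247 and 8186 CPM before treatment and 2918 and 3325 after 96 h, and miR-29c-3p 51.3 and 99.1 before treatment and 34.3 and 42.6 after 96 h. In both, 0 h replicate 2 was the higher of the 0 h libraries, and without it the log2-fold changes were -0.44 (edgeR adjusted p = 0.127) and -0.41 (adjusted p = 0.249). Neither passed when a 96 h library was left out (adjusted p of 0.0974 to 0.189), and miR-29c-3p did not pass without 24 h replicate 1 (adjusted p = 0.0598). MiR-101-3p did not pass without 96 h replicate 2 (adjusted p = 0.111). The median of the list was -0.044, beside -0.10 for all miRNAs. At 24 h 1 of 8 was called, miR-143-3p (4.22), against 3.46% of all miRNAs. From 24 h to 96 h 2 of 8 were called, against 5.91%, with miR-143-3p higher (2.11) and miR-29b-3p lower (-1.29). The latter call did not hold without 24 h replicate 1 (-0.82) or without a 96 h library (-1.13 and -1.30, edgeR adjusted p = 0.217 and 0.131). MiR-29 family members are known to act on the de novo methyltransferases DNMT3A and DNMT3B, whereas the miR-148 and miR-152 guides are best known for DNMT1.

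The second list held the miR-130 and miR-301 miRNAs, since bases 3 to 8 of the family guides, AGUGCA, recur in them at positions 2 to 7. This was so in all 4 of the 5 listed miRNAs that the reference table holds, and in 6 of its 2370 entries in all. All 5 passed the filter. At 96 h against 0 h 1 of 5 was called, against 25.9% of all miRNAs. It was miR-130b-3p, which fell by 1.01 on the log2 scale (SE 0.289, edgeR adjusted p = 0.0178), from 27.1 and 49.8 CPM to 17.9 and 20.6 CPM. The value was -0.49 without 0 h replicate 2, the higher of the 0 h libraries (adjusted p = 0.185), and it passed both thresholds in 1 of the 6 fits that left out a library, that without 0 h replicate 1 (-1.33). The median of the list was -0.67 beside -0.10 for all miRNAs, while the 3 family guides were at 0.13 to 0.80. The difference between these groups of miRNAs was not tested.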

How the data were processed

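Small RNA libraries of A549 cells were made with Illumina's small RNA kit, sequenced on an Illumina HiSeq, and counted by the authors with miRDeep2. Per the submitters' processing notes the build was hg19 and FastQC was used, and the counting settings are not given in the sources used here. The authors deposited counts, whole reads per mature miRNA and precursor with both runs of a library summed and no normalization. The deposited normalized signal is the sum of the CPM of both runs, and 1 of its columns repeats another and was not used, so 96 h replicate 2 has none.

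For each name the entry with the highest total was kept. The edgeR package 4.0.16 in R 4.3.3 was used on the counts (TMM, filterByExpr with a minimum count of 10, the quasi-likelihood F-test, the time point as the only term, all 6 libraries) with Benjamini-Hochberg adjustment over 491 miRNAs. Log2 levels for the correlations used a prior count of 1. The procedure was tested on simulated data. Summed levels, shares, and strand ratios were compared by a two-sided exact permutation test over 15 divisions. A count of 0 allows up to 3 counts, equal to 1.28 CPM of the lowest library total and 0.502 CPM of the highest. Counting intervals are 95% Wilson intervals.

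Alternatives were DESeq2 1.42.0 (size factors and Wald test), total counts with and without miR-21-5p, limma 3.58.1 on log2 of the deposited normalized values plus 1, other filters, only the time points compared, a replicate block, all precursor entries, thinning to the smallest total, and leaving out each library. The members, lists, and alternatives were chosen with earlier results of these data known. Named miRNAs were the members, miR-152-5p, any miRNA with their seed, the 3 most like each guide, and the lists. Positions are GENCODE release 44 on GRCh37. RefSeq sequences, from a table on GRCh38.p14, matched 2281 of the 2588 names. Shares and exact tests were computed in Python 3.11.15 with pandas 2.3.3, numpy 2.4.6, and scipy 1.17.1, and figures with matplotlib 3.10.9.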

Additional observations from a re-analysis of the deposited data

How the results depend on the processing

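The values that crossed a threshold or turned direction are given here, and the cause was not tested. With total counts the log2-fold changes at 96 h against 0 h were 0.10 for miR-148a-3p, -0.42 for miR-148b-3p, -0.59 for miR-152-3p, -1.59 for miR-148a-5p, -1.33 for miR-148b-5p, and -2.13 for miR-152-5p. Without miR-21-5p in the totals they were 0.46, -0.059, -0.22, -1.21, -0.95, and -1.75. With limma on the normalized values, with 1 library at 96 h, the first 5 were 0.13, -0.48, -0.57, -1.41, and -1.16. A mean of at least 10 CPM gave 0.66 for miR-148a-3p and -0.0097 for miR-152-3p. The adjusted p of miR-148b-5p was no longer under 0.05 with DESeq2's size factors (-0.52), DESeq2's Wald test (-0.52), no filter (-0.54), only the time points compared (-0.55), and thinned libraries (-0.57). Members called by both thresholds at 96 h were 2 with total counts and 1 with totals without miR-21-5p, instead of 0. Over all miRNAs these settings called 215 of 491 and 160 of 489.

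At 24 h against 0 h total counts gave -0.093 for miR-148b-3p and -0.28 for miR-152-3p, limma -0.080 and -0.25, and totals without miR-21-5p -0.17 for miR-152-3p. MiR-152-3p was also at -0.069 with a mean of at least 10 CPM, -0.020 with only the time points compared, and -0.024 when thinned. MiR-148a-5p was at 0.0062 with DESeq2's size factors, 0.0069 in the Wald test, and 0.023 without a filter. At 96 h against 24 h total counts gave -0.082 for miR-148a-3p, -0.33 for miR-148b-3p, -0.32 for miR-152-3p, -1.29 for miR-148a-5p, and -0.87 for miR-148b-5p. With total counts 1 member was called, against 72 of 491 miRNAs. Limma gave -0.11, -0.40, and -0.31 for the guides. Totals without miR-21-5p gave -0.065 for miR-148b-3p and -0.053 for miR-152-3p, and only the time points compared gave 0.34 for miR-148a-3p. The family sum differed by -0.14 (96 h minus 0 h) and -0.19 (96 h minus 24 h) with total counts.

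Leaving out each library in turn gave, at 24 h against 0 h, 0.034 to 1.07 for miR-148a-3p, -0.015 to 0.46 for miR-148b-3p, -0.052 to 0.069 for miR-152-3p, -0.10 to 0.082 for miR-148a-5p, -0.30 to 0.061 for miR-148b-5p, and -0.55 to 0.038 for miR-152-5p. At 96 h against 0 h it gave 0.39 to 1.43 for miR-148a-3p, 0.088 to 0.57 for miR-148b-3p, and -0.72 to -0.37 for miR-148b-5p, and at 96 h against 24 h 0.33 to 0.47 for miR-148a-3p, 0.040 to 0.26 for miR-148b-3p, 0.10 to 0.23 for miR-152-3p, -0.95 to -0.62 for miR-148a-5p, -0.43 to -0.32 for miR-148b-5p, and -1.54 to -0.63 for miR-152-5p. Among the members only miR-148a-3p passed a log2-fold change of 1 in these fits, and only without 0 h replicate 1 (1.07 at 24 h and 1.43 at 96 h against 0 h). Between 24 h and 0 h the log2 strand ratio ranged from -1.10 to 0.045 in MIR148A, -0.76 to 0.078 in MIR148B, and -0.62 to 0.020 in MIR152, and the share of miR-152-3p from -3.22 to 0.024 percentage points. Between 96 h and 0 h, the strand ratios and the share of miR-148a-3p kept their direction in the 5 alternatives that can change them, thinned libraries and leaving out each 0 h or 96 h library.

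Same-numbered libraries did not deviate together (correlations of -0.298, 0.295, and -0.173), so the numbers are not treated as pairs. With the replicate block miR-148b-5p was at -0.58 at 96 h against 0 h (edgeR adjusted p = 0.0632), and no other member crossed the threshold. The block gave 20, 124, and 41 calls over all miRNAs at 24 h against 0 h, 96 h against 0 h, and 96 h against 24 h.

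Over all miRNAs the calls, in the same order, were 17, 127, and 29, and with total counts 33, 215 (23 higher and 192 lower, against 62 higher and 65 lower with TMM), and 72. Without a minimum fold change they were 35, 216, and 62. Totals without miR-21-5p gave 26 at 24 h. At 96 h against 24 h limma gave 10, no filter 46, a mean of at least 10 CPM 17, only the time points compared 44, and thinned libraries 19. Leaving out a library gave 4 to 36 calls at 24 h against 0 h (36 without 0 h replicate 1, 5 and 4 without the 24 h libraries) and 9 to 46 at 96 h against 24 h (46 and 44 without the 0 h libraries, 9 without 24 h replicate 1, 11 and 16 without the 96 h libraries). Depth limits the 5p arms, which rest on 4 to 23 counts per library in MIR148A and MIR152.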
